A study of Mus musculus with 6 samples.

Results

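Zfp423, its paralog Zfp521, the 4 Ebf transcription factors (Ebf1, Ebf2, Ebf3 and Ebf4) and Zbtb18 were followed in mouse cerebellum under a low-Mn and a normal-Mn diet. These are 7 of the 53715 mouse genes in the count table, found there by matching gene identifiers to GENCODE M21 symbols. Zfp423 and Zbtb18 were chosen by the difference between the diets in these same libraries, because both are among the genes that the study listed as changed. Zfp521 was added as the paralog of Zfp423, and the Ebf genes as its partners. The diet difference of the 7 genes is therefore given as a description, with its interval and without a test. Cerebellar RNA came from male wild-type C57BL/6 mice, bought at 4 weeks of age and called adult in the labels. Both groups started on the diet with 35 ppm Mn. One group then received a diet labelled 0 ppm Mn for 2 weeks (low-Mn), while the other stayed on 35 ppm (normal-Mn). Each diet had 3 libraries of polyadenylated RNA, made from the whole cerebellum, so a cell type cannot be separated from its neighbours.

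Zfp423 is a large zinc-finger protein that binds EBF factors and the SMAD proteins activated by bone morphogenetic proteins (BMPs), and mice without it have a small or absent cerebellar vermis. Zfp521 is a close relative that also binds EBF factors. The EBF proteins bind DNA as dimers, and Ebf2 is needed for the migration and subtype identity of Purkinje cells. Zbtb18, also named RP58, is a BTB zinc-finger repressor that holds down Id genes while neurons form. All 7 genes encode nuclear proteins known mainly from development, and these libraries measured their mRNA in mice past weaning.

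In the GRCm38 assembly, Zfp423 (ENSMUSG00000045333) lies on the minus strand of chromosome 8, from 87661810 to 87959595. Ebf1 (ENSMUSG00000057098) lies on chromosome 11 from 44617317 to 45008091, Ebf2 (ENSMUSG00000022053) on chromosome 14 from 67233292 to 67430918, and Ebf4 (ENSMUSG00000053552) on chromosome 2 from 130295169 to 130370481, all on the plus strand. Ebf3 (ENSMUSG00000010476) occupies the minus strand of chromosome 7 from 137193673 to 137314445. Zbtb18 (ENSMUSG00000063659) lies on the plus strand of chromosome 1 from 177442351 to 177450764. The genes differ strongly in size. Zbtb18 spans 8.41 kb, below the median of 22.0 kb over tested genes, whereas Zfp423 spans 297.8 kb, Zfp521 285.8 kb and Ebf1 390.8 kb. Ebf2, Ebf3 and Ebf4 span 197.6, 120.8 and 75.3 kb. The Ebf genes share a gene structure, with 17 merged exons in each, against 14 in Zfp423, 9 in Zfp521 and 7 in Zbtb18.

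No 50-base stretch of the exons of any of the 7 genes occurred in another of them, so reads of that length could not be split between paralogs. Ebf2 and Ebf3 overlap an annotated gene on the opposite strand (Gm10860 and Gm45278) over 6.12% and 3.85% of their exonic bases, and Zbtb18 overlaps Gm26801 over 0.88%. The counting is not stated to use strand, so reads in those stretches cannot be assigned to one gene or the other.

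Short stretches of promoter are shown here because EBF proteins and Zbtb18 bind known letters, and their own genes and Zfp423 could be searched for them. Start-site windows of 300 bases from RefSeq (GRCm38.p6) are given for Zfp423, Ebf1, Ebf3, Ebf4 and Zbtb18. Ebf2 had no window in that set, and Zfp521 is not reported here. The EBF core was searched as CCCNNGGG, which reads the same on both strands, and the Zbtb18 core as ACATCTG on either strand. The 2 motifs share no letters at any match. The capitals mark the match within 30 bases, written along the strand of the gene.
Zfp423, internal start, chr8:87804449-87804478, minus strand, EBF core: ggctgaggtcaCCCGTGGGccagtgggaag
Zfp423, internal start, chr8:87804648-87804677, minus strand, Zbtb18 core: cggttgagccaACATCTGgccatgtggccc
Ebf3, chr7:137314448-137314477, minus strand, EBF core: acagcgccgctCCCGGGGGcttcgagtttt
Zbtb18, first start, chr1:177442210-177442239, plus strand, Zbtb18 core: cgggcggggccACATCTGggccgcgccgcc
Zbtb18, internal start, chr1:177445620-177445649, plus strand, Zbtb18 core on the opposite strand: gtcagctggatCAGATGTttataagcttcc

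The Zfp423 matches begin at positions -28 and -227 from its internal start site, and its outer start window held neither motif. The Ebf3 match begins at -21, and those of Zbtb18 at -130 and -190. Neither motif is rare, since 13.7% of the 32807 promoter windows of the same length held the EBF core and 4.43% the Zbtb18 core. Per gene, with all its windows, the shares were 15.4% and 5.1% of 26987 genes. Zfp423 was searched in 2 windows and Zbtb18 in 5, and the Zbtb18 windows not shown held neither motif. The fixed letters of the EBF core are all G or C, and these shares were not matched for G and C content. The windows of Ebf1 and Ebf4 held neither. The first Zbtb18 window was 81.7% G and C, higher than in 99.5% of windows, and those of Ebf3 and Ebf4 were 77% and 74.3%, against a median of 52.7%. A match is a description of letters and no measurement of binding.

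Library totals ran from 14548336 to 21277469 counts, and all 7 genes passed the filter on low counts that left 16123 genes. Over all genes, 96 passed the edgeR test for diet at an adjusted p of 0.05, or 0.595% of those tested. Higher calls in low-Mn made up 0.416% (67 genes) and lower calls 0.180% (29 genes). With upper quartile scaling the split was 53 higher and 37 lower, and with no filter on low counts 424 genes were called, 218 higher and 206 lower. The count fell to 37 without low-Mn replicate 2, 45 without normal-Mn replicate 2 and 47 without low-Mn replicate 1. Diets did not overlap for 2759 genes, or 17.1% of those tested. Among the 7 genes, 1 passed the threshold (Zfp423) and 2 had diets that did not overlap (Zfp423 and Zbtb18), all lower in low-Mn. The 1 call was lost without low-Mn replicate 1, 2 or 3 and without normal-Mn replicate 1 or 2. Zbtb18, not called here, passed in 7 of 16 alternative analyses, among them DESeq2, the method of the study. Because Zfp423 and Zbtb18 were selected on this contrast, nothing is read from these counts.

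Normal-Mn replicate 2, the library with the highest Zfp423, stood apart within its diet. Chi-square per degree of freedom between replicates over all genes was 7.60 and 6.75 for the pairs that include it, and 3.63 to 3.99 for the other pairs, where counting error alone gives about 1.

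The level of Zfp423 was lower in each low-Mn library than in any normal-Mn library. In counts scaled to library size with TMM factors (CPM), low-Mn replicates 1, 2 and 3 had 31.9, 37.2 and 36.0. Normal-Mn replicates 1, 2 and 3 had 43.7, 48.0 and 41.2. The gap between the highest low-Mn and the lowest normal-Mn library was narrower than the range within either diet. Means were 35.1 ± 2.80 and 44.3 ± 3.44 CPM (SD, n = 3 each), from 542 to 1009 counts per library. The fitted difference was −0.34 on the log2 scale (SE 0.0762, 95% interval −0.50 to −0.18), or −21.1%. With 1 library left out, the difference ranged from −0.39 to −0.28, and without normal-Mn replicate 2 it was −0.28.

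Zbtb18 was the other gene with separated diets, and its level was far higher. Low-Mn libraries had 650.0, 643 and 720 CPM for replicates 1, 2 and 3. The normal-Mn libraries had 751, 766 and 773 CPM. The third low-Mn library stood nearest to the normal-Mn libraries, while those lay close together. Means were 671 ± 42.8 and 763 ± 11.0 CPM (SD, n = 3 each), from 9356 to 16101 counts, so that counting error was small. The fitted log2 difference was −0.19 (SE 0.0461, 95% interval −0.28 to −0.09), or −12.1%. With 1 library left out, it ranged from −0.24 to −0.16.

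**Figure D1:**
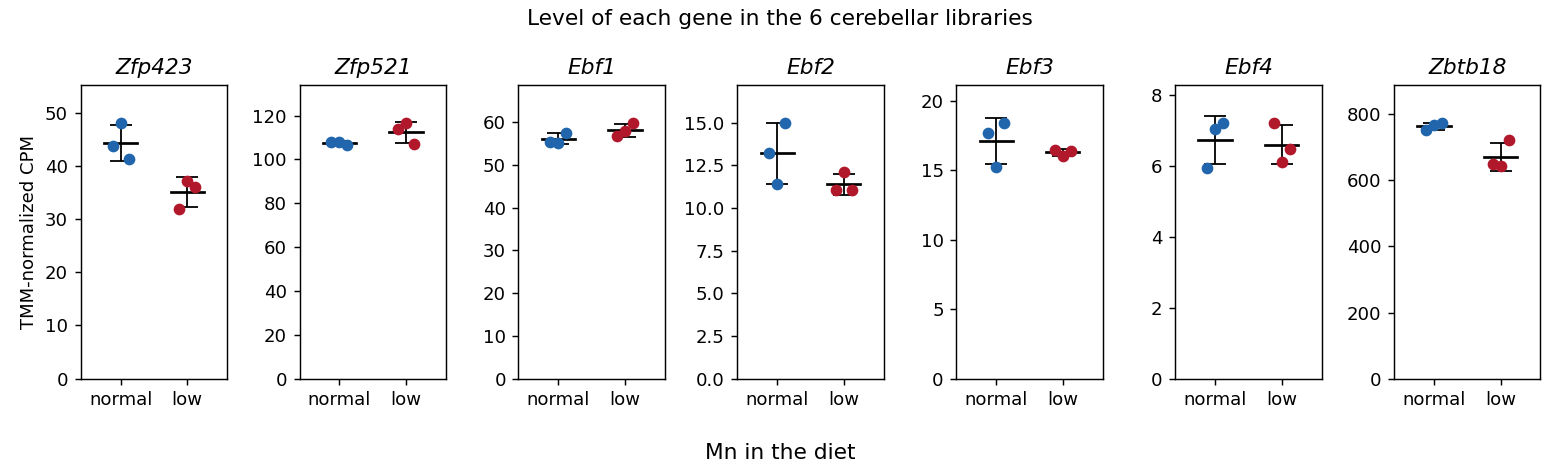
CPM of each of the 7 genes (vertical axis) in the 3 low-Mn and 3 normal-Mn libraries (points), with the mean and SD of each diet. Diets separate for Zfp423 and Zbtb18 and overlap for the other genes.

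For Zfp521, the paralog of Zfp423, the diets overlapped. Low-Mn replicates had 114, 116 and 107 CPM, and normal-Mn replicates had 108, 108 and 107. The third low-Mn library matched the normal-Mn libraries, and the other low-Mn libraries lay above them. The means were 112 ± 4.90 and 108 ± 0.677 CPM, a fitted log2 difference of 0.06 (SE 0.0493, 95% interval −0.04 to 0.17). Per kb of exon, the level of Zfp423 was 0.352, 0.401 and 0.422 of the level of Zfp521 in low-Mn replicates 1, 2 and 3. It was 0.508, 0.557 and 0.484 in the normal-Mn replicates. The ratio therefore also separated the diets, with means of 0.392 ± 0.0361 and 0.516 ± 0.0374, and it carries the diet difference by which Zfp423 was chosen.

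Diets overlapped for each of the 4 Ebf genes. Ebf1 had 56.7, 57.9 and 59.7 CPM in low-Mn and 55.4, 55.2 and 57.5 in normal-Mn. Its means were 58.1 ± 1.501 and 56.0 ± 1.28, and the log2 difference was 0.05 (95% interval −0.07 to 0.17). Ebf2, the member tied to Purkinje cell migration, was the Ebf gene with the most negative fitted difference. Its low-Mn libraries had 11.0, 12.1 and 11.0 CPM and its normal-Mn libraries 13.2, 11.4 and 14.96. The second normal-Mn library fell within the low-Mn range, and the log2 difference was −0.21 (SE 0.124, 95% interval −0.47 to 0.05). Without normal-Mn replicate 3, its highest library, it was −0.11.

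Ebf3 behaved like Ebf2 within the normal-Mn group, where replicate 2 was the lowest for both. Low-Mn libraries had 16.4, 16.01 and 16.3 CPM, and normal-Mn libraries 17.7, 15.2 and 18.4. The 3 low-Mn libraries were almost equal and lay inside the normal-Mn range, with a log2 difference of −0.07 (95% interval −0.29 to 0.15). Ebf4, another member of the family, was the lowest in counts, with 89 to 148 per library. It had 7.21, 6.12 and 6.48 CPM in low-Mn and 5.94, 7.05 and 7.21 in normal-Mn. The log2 difference was −0.02 (95% interval −0.36 to 0.31), and at the lowest count the counting SD alone was 10.6%. A difference between diets of the size fitted for Zbtb18 lies within the intervals of Ebf2, Ebf3 and Ebf4.

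**Figure D2:**
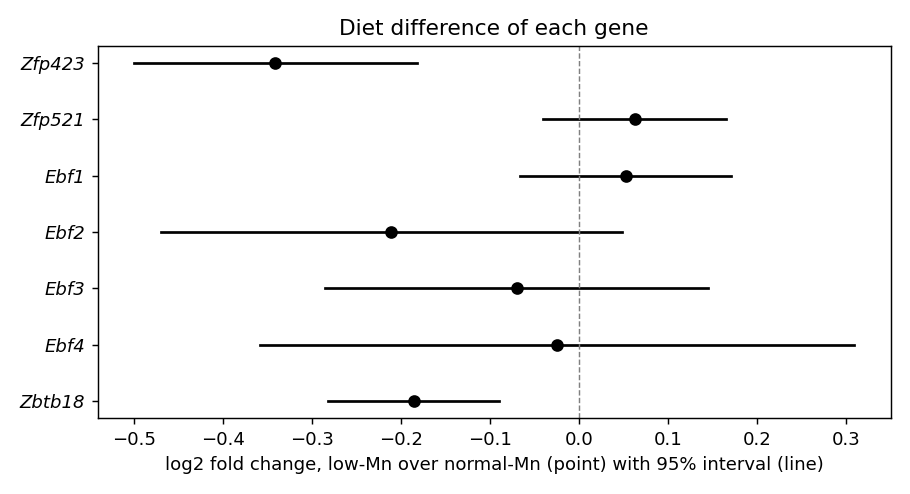
Fitted log2 difference, low-Mn over normal-Mn, of each gene (points) with its 95% interval (lines). The intervals of Zfp423 and Zbtb18 lie below 0 and those of the other 5 genes include it.

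Compared with each other, the Ebf genes were led by Ebf1. On the scale of CPM per kb of merged exon, Ebf1 made up 50.9, 52.5 and 53.3% of the summed Ebf level in low-Mn replicates 1, 2 and 3. In normal-Mn it made up 50.1, 50.8 and 48.0%. The ranges did not overlap, although the lowest low-Mn and highest normal-Mn shares were nearly equal, and the means were 52.2 ± 1.20% and 49.6 ± 1.44%. Ebf2 held 14.0, 15.4 and 13.9% in low-Mn and 16.8, 14.8 and 17.6% in normal-Mn, so the diets overlapped. Ebf3 and Ebf4 also overlapped, with 14.8 to 16.9% for Ebf3 and 16.2 to 19.6% for Ebf4 over all 6 libraries. The summed Ebf level was 11.4 ± 0.0926 CPM per kb in low-Mn and 11.6 ± 0.607 in normal-Mn. The shares depend on the length used: with the mean transcript length, Ebf1 averaged 67.7% over the 6 libraries in place of 50.9%, Ebf2 10.2% in place of 15.4%, Ebf3 14.8% in place of 15.7% and Ebf4 7.29% in place of 17.9%. These shares use the same counts as the diet differences above and were not tested.

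Levels of different genes were compared per kb of merged exon over all 6 libraries, a measure the choice of genes did not use. Zbtb18 was the highest, at 117 ± 9.41 CPM per kb (SD, n = 6), above 98.4% of the 16105 tested genes with a length. Zfp521 followed at 15.6 ± 0.583, then Zfp423 at 7.08 ± 1.03 and Ebf1 at 5.85 ± 0.173. Ebf4, Ebf3 and Ebf2 came last at 2.06 ± 0.174, 1.81 ± 0.124 and 1.77 ± 0.222. The lowest of these still stood above 29.7% of tested genes.

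Neighbours in this order were compared within libraries by an exact two-sided permutation test that flips signs, with Benjamini-Hochberg adjustment over 6 pairs. Zbtb18 was 7.46-fold above Zfp521, Zfp521 2.23-fold above Zfp423, and Ebf1 2.85-fold above Ebf4, each in 6 of 6 libraries. For those 3 pairs the exact permutation p was 0.03125, the smallest that 6 libraries allow, and 0.0625 after adjustment. Zfp423 was 1.20-fold above Ebf1 and Ebf4 1.14-fold above Ebf3, each in 5 of 6 libraries (adjusted p = 0.075 in the exact permutation test). The first of these varied with the diet difference by which Zfp423 was chosen: Zfp423 was 1.05-fold above Ebf1 over the low-Mn libraries and 1.37-fold over the normal-Mn libraries. In low-Mn replicate 1 Zfp423 was below Ebf1, at 5.69 against 5.81 CPM per kb. Ebf3 and Ebf2 differed by 1.02-fold, in 4 of 6 libraries (adjusted exact permutation p = 0.344). None of the 6 neighbours passed 0.05 after adjustment with the merged exon length. A pair can pass only when most of the 6 pairs reach the smallest p, so failing to pass does not mean a small difference. The order and the calls depend on the length. With the mean transcript length, Zfp423 fell below Ebf1 (log2 −0.40) and Ebf4 below Ebf3 (−1.02). Ebf4 was then also below Ebf2 (2.44 against 3.42 CPM per kb) and the lowest of all. The same 6 pairs, kept from the merged exon order, all passed, at an adjusted exact permutation p of 0.03125. A change of length shifts a pair equally in every library, so this p does not measure the uncertainty of the length.

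**Figure D3:**
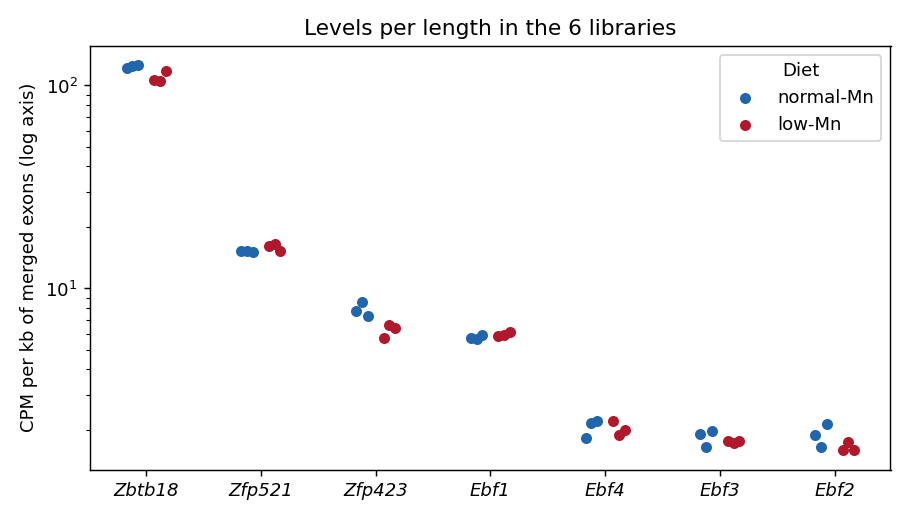
CPM per kb of merged exon on a log axis for the 7 genes, with 1 point per library in the colour of its diet. Zbtb18 stands highest, and Ebf2, Ebf3 and Ebf4 share the low end near 2 CPM per kb.

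Genes whose level followed that of Zfp423 across the 6 libraries were Nol11 (Pearson r = 0.995), Iqgap1 (0.991), Prr18 (0.988), H1f0 (0.987) and Tmem132e (0.985), out of 11685 genes with a mean of at least 100 counts. With the mean of each diet subtracted, r was 0.945 to 0.981. For Zbtb18 they were Stk17b (r = 0.9996), Actn4 (0.988), Cltc (0.988), Ttyh1 (0.988) and Mog (0.984), and 0.935 to 0.999 with the diet means subtracted. Mog is a protein of the myelin sheath, Actn4 crosslinks actin and Cltc is the clathrin heavy chain. These are the highest of many correlations over 6 libraries that share their depth and diet, and are given as a description.

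Tested protein-coding genes next to Zfp423 and Zbtb18 did not pass the edgeR test. Cbln1, a synapse organizer secreted by granule cells, lies 189 kb from Zfp423 and differed by −0.07 on the log2 scale (edgeR adjusted p = 0.552). On the other side Cnep1r1 lies 159 kb away and differed by −0.01 (edgeR adjusted p = 0.983). Next to Zbtb18, Adss (312 kb away) had a log2 difference of 0.02 (edgeR adjusted p = 0.934).

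Genes of the pathways around the 7 were then tested. The rule for the 7 genes did not use them, but the lists were drawn up with earlier results of these libraries known and hold genes of the study's own list of changed genes, so they are no independent evidence. Of 203 listed genes, 200 had a symbol in the table and 189 passed the filter. One was higher in low-Mn (Zbtb11) and 0 were lower at an edgeR adjusted p of 0.05, which is 0.529% against 0.595% over all genes. Their median log2 difference was 0.01, against −0.0025 over all genes. Diets did not overlap for 41 of the 189, a larger share than the 2759 of 16123 over all tested genes (17.1%). The difference between these shares was not tested.

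BMP signalling supplies the SMAD proteins that Zfp423 binds, and 0 of 25 genes of this pathway passed, with a median log2 difference of −0.01. Bmp7, a BMP ligand of the roof plate, had the smallest p. Its low-Mn libraries had 12.2, 9.83 and 10.5 CPM and its normal-Mn libraries 15.1, 17.1 and 13.1, with no overlap (log2 difference −0.47, SE 0.127, edgeR adjusted p = 0.0969). Msx2, a transcription factor induced by BMPs, averaged 8.48 and 11.1 CPM without overlap (−0.39, edgeR adjusted p = 0.238), and the ligand Bmp6 overlapped (−0.23, edgeR adjusted p = 0.322). The summed CPM of the list was 945 to 962 in low-Mn and 971 to 993 in normal-Mn.

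Id genes, Hes genes and proneural factors are targets or counterparts of Zbtb18 and Zfp423 in forming neurons. Of 18 listed, 16 were tested and 0 passed, with a median of −0.05, while Neurog1 and Neurog2 fell under the filter. Hes1, a Notch-induced repressor of neuronal differentiation, came closest to the threshold. It had 4.94, 4.40 and 4.19 CPM in low-Mn and 6.51, 7.62 and 8.83 in normal-Mn. The diets did not overlap, at −0.76 on the log2 scale (SE 0.175, edgeR adjusted p = 0.0518). It passed in 5 of the 15 alternatives with an adjusted p for it, among them the omission of normal-Mn replicate 1 (edgeR adjusted p = 0.0441). DESeq2, the method of the study, is not among these 15. Neurod1, a factor of granule neurons, was 369 ± 4.89 CPM in low-Mn and 324 ± 29.4 in normal-Mn without overlap (0.18, edgeR adjusted p = 0.125), and is also in the study's list of changed genes. Hey1 had a log2 difference of 0.21 (edgeR adjusted p = 0.300).

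The NuRD corepressor complex is recruited by Zfp423 and Zfp521, and 0 of its 14 genes passed. Mta2, Mbd3 and Gatad2a had the smallest p, with log2 differences of 0.17, 0.09 and 0.08. Transcription factors of cerebellar development were mostly tested, 43 of 48, and 0 passed. Of these, 29 were fitted below 0 and 14 above, with a median of −0.03. Eomes, the marker factor of unipolar brush cells, had 19.1, 23.2 and 12.4 CPM in low-Mn and 11.2, 10.9 and 14.6 in normal-Mn. The third low-Mn library fell among the normal-Mn libraries (log2 difference 0.58, edgeR adjusted p = 0.126). Sox9 and Sox2, factors of glia and progenitors, had −0.21 and −0.19 with overlapping diets.

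A list of genes of Purkinje cells and of their subtypes, which Ebf2 helps to set, gave 0 of 16 calls and a median of 0.06. Calb1, Itpr1, Pcp4 and Slc1a6 in it also stand in the general Purkinje marker list, and Prkcd in the interneuron list. The count and median therefore do not describe subtype genes alone. Prkcd and Plcb4 had log2 differences of −0.17 and 0.10. Genes of Joubert syndrome and of the cilium, chosen because the human ortholog ZNF423 is mutated in that syndrome, gave 0 calls among the 32 of 34 that were found. Of these, 22 were fitted above 0 and 10 below (median 0.04), and the summed CPM was 923 to 961 in low-Mn against 882 to 907 in normal-Mn. These values include Suz12, which is not a gene of that syndrome or of the cilium. Suz12 had 71.6 to 76.2 CPM in low-Mn and 69.5 to 80.1 in normal-Mn (log2 difference −0.01). Cep120, a centriole protein, had 94.5 ± 4.74 CPM in low-Mn and 83.4 ± 3.85 in normal-Mn without overlap (0.18, edgeR adjusted p = 0.158). Cplane1 and Tmem67 had 0.18 and 0.30 (edgeR adjusted p = 0.279 and 0.356).

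Zfp423 also commits cells to the adipocyte lineage, and Zfp521 opposes it. Of 14 genes of that programme 10 were tested and 0 passed, with a median of −0.08. Klf9, a factor induced by glucocorticoids, was 172 ± 1.86 CPM in low-Mn and 151 ± 7.19 in normal-Mn without overlap (0.19, SE 0.0470, edgeR adjusted p = 0.0756), and is also in the study's list. Cebpd and Pdgfra had log2 differences of 0.77 and −0.19 (edgeR adjusted p = 0.188 and 0.348).

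Other BTB zinc-finger genes were listed by name, as every symbol made of Zbtb and a number. Among these, 1 of 33 tested was higher in low-Mn and 0 were lower, where Zbtb18 itself was fitted lower. Members of the family with names of another form are not in this list, so calls among them are not counted here. Zbtb11 had 64.8, 66.8 and 57.7 CPM in low-Mn and 52.5, 47.2 and 48.8 in normal-Mn. The diets did not overlap, and the log2 difference was 0.35 (SE 0.0659, edgeR adjusted p = 0.0176). It is also in the study's list of genes changed in these libraries. Its call was lost without low-Mn replicate 1 or 2 (edgeR adjusted p = 0.0797 and 0.110) and without normal-Mn replicate 2 or 3 (0.0684 and 0.0594). Of the 33, 26 were fitted above 0, against 49.2% of all tested genes, with a median of 0.09 and a summed CPM of 1106 to 1140 against 1021 to 1068. Zbtb16, a factor of progenitor cells also known as PLZF, had 8.54, 13.5 and 13.8 CPM in low-Mn and 14.98, 20.3 and 17.1 in normal-Mn without overlap (−0.56, edgeR adjusted p = 0.104). Zbtb37 overlapped, at 0.29 (edgeR adjusted p = 0.158).

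**Figure D4:**
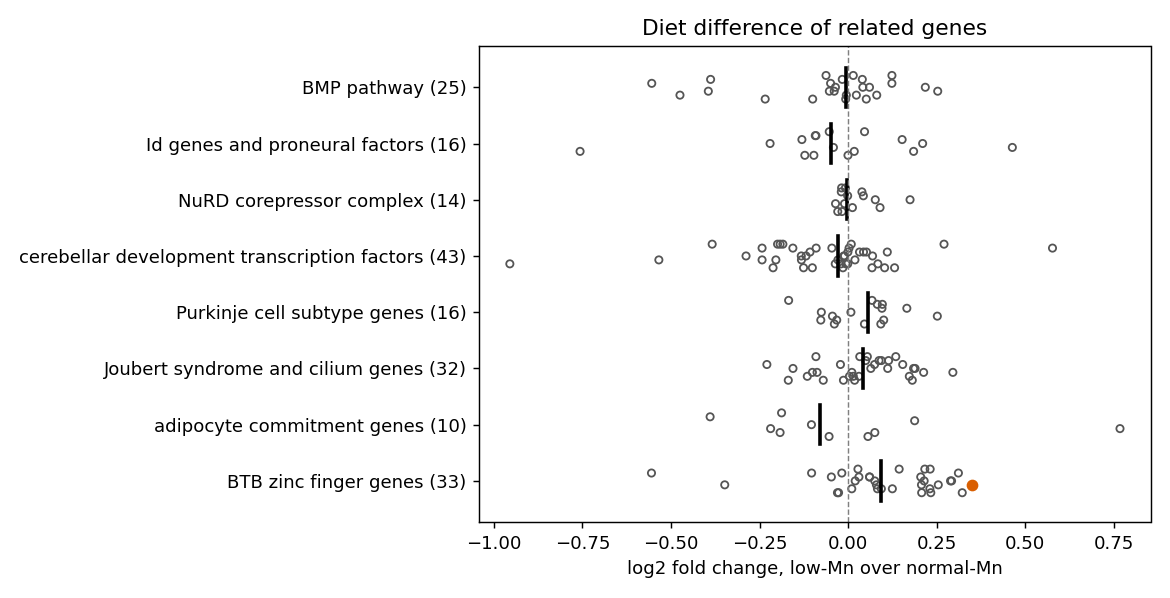
Log2 difference, low-Mn over normal-Mn, of each tested gene in the 8 related lists (circles), with the list median as a bar and genes at an edgeR adjusted p under 0.05 filled. Zbtb11 is the 1 filled gene, and the medians run from −0.08 to 0.09.

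Markers of the cell types in the tissue were measured in the same libraries, and none of the listed genes was at 0 throughout. Summed CPM of 12 granule neuron markers was 6476 to 6641 in low-Mn and 6339 to 6785 in normal-Mn, with 0 of 12 called. For 12 Purkinje markers it was 10880 to 11299 and 10351 to 11095, also with 0 called. Neuronal lists of the cerebellum thus overlapped between diets for the abundant neurons, while the unipolar brush cell list stood at 764 to 784 against 720 to 747. Interneuron (1534 to 1541 against 1509 to 1652), endothelial (202 to 219 against 205 to 214) and mural cell sums (236 to 254 against 232 to 245) overlapped. Sums were lower in every low-Mn library for 4 lists of glia: oligodendrocytes (7112 to 7403 against 7598 to 8429), their precursors (234 to 251 against 258 to 267), astrocytes and Bergmann glia (4383 to 4514 against 4594 to 4761) and microglia (163 to 171 against 181 to 186). Olig1 was the largest part of the precursor sum, at 77.1 to 81.4 CPM in low-Mn and 85.7 to 94.8 in normal-Mn. Of the 8 precursor genes, diets did not overlap for 3 (Olig1, Sox10 and Pdgfra). Gpr17 and Vcan were fitted above 0 (log2 0.05 and 0.14), so the precursor sum does not describe every gene listed. Of 12 oligodendrocyte markers 2 were called lower, among them Gjc3 (−0.24, edgeR adjusted p = 0.0403), and 0 of the other glial markers, where 0.180% of all tested genes were called lower. Gjc3 is also in the study's list of changed genes.

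Meningeal and choroid plexus lists had 2 of 12 genes called lower each, with sums that overlapped. In each list 11 of 12 genes were fitted below 0. Fn1 (−0.41, edgeR adjusted p = 0.00983) and Igf2 (−0.26, edgeR adjusted p = 0.0432) were called among the first, and Kl (−0.51, edgeR adjusted p = 0.00183) and Sostdc1 (−0.51, edgeR adjusted p = 0.0362) among the second, and Fn1, Igf2 and Kl are also in the study's list. Over all tested genes 0.180% were called lower. The sums were 1460 to 1754 against 1594 to 1795 for meninges and 2251 to 2778 against 2584 to 3135 for choroid plexus. Ptgds made up most of the meningeal sum, with 1136 to 1375 CPM in low-Mn and 1198 to 1343 in normal-Mn. Ttr made up most of the choroid plexus sum, with 2010 to 2514 CPM in low-Mn and 2296 to 2780 in normal-Mn. The overlap of these sums therefore mostly describes Ptgds and Ttr, and not the other genes listed. The median log2 differences of the 6 glial, meningeal and choroid plexus lists were −0.25 to −0.07, below 0 as for Zfp423 and Zbtb18, and their part in those values was not tested. In whole tissue, fewer cells of a type and less RNA per cell cannot be told apart.

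**Figure D5:**
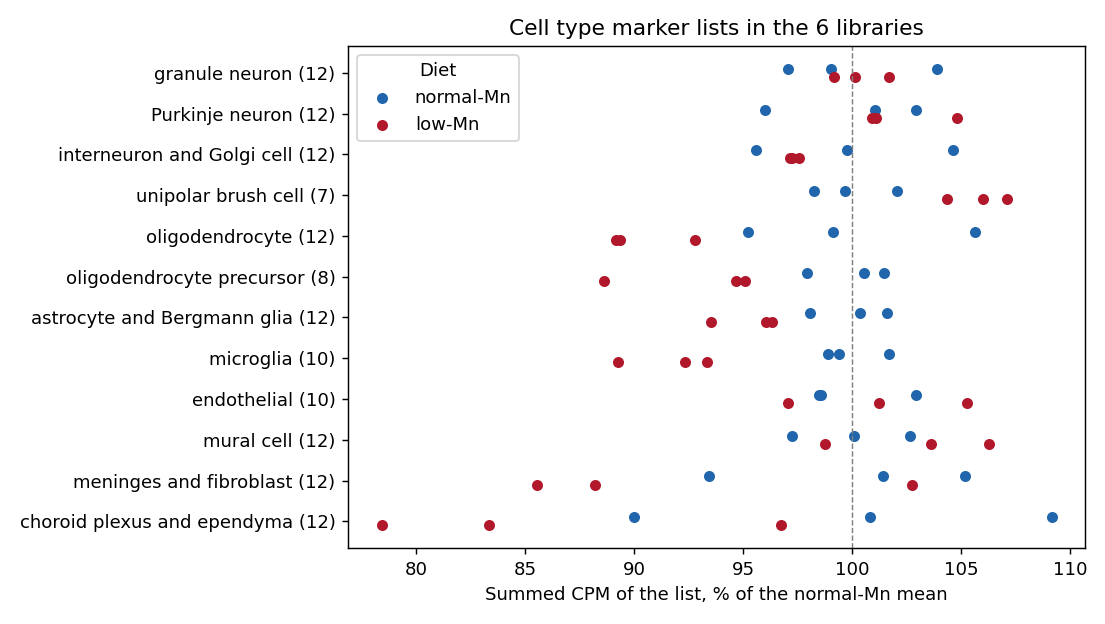
Summed CPM of each marker list in each library, as a percent of the mean of the normal-Mn libraries, with 1 point per library in the colour of its diet. The 4 glial lists lie below the normal-Mn libraries in all 3 low-Mn libraries, while the granule and Purkinje lists overlap.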

How the data were processed

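Cerebella of 3 mice per diet were measured by RNA-seq. The authors made libraries from polyadenylated RNA and mapped reads with STAR. FastQC, RSEM, DESeq2 and the mm10 build stand in the submitters' processing notes (the sources used here do not state versions). The deposited values are expected counts of each gene without normalization, of which 7.12 to 7.74% per library were not whole numbers. The 92 spike-in entries were 0 and were left out. Of 53715 mouse genes, 53620 matched GENCODE M21, which gave positions, exons and lengths. The 3 low-Mn columns carry only a number and were matched to the replicate number in the sample titles. The study's methods call the libraries biological replicates, while a legend calls triplicates technical, so p-values may measure technical spread, although replicates differed by more than counting error.

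Counts were rounded, filtered with filterByExpr (minimum count 10, minimum total 15), scaled by TMM factors (0.989 to 1.01) and tested with glmQLFit and glmQLFTest in edgeR 4.0.16 (limma 3.58.1, R 4.3.3) with Benjamini-Hochberg adjustment over 16123 genes at 0.05. Differences are low-Mn over normal-Mn. The gene test was first tested on simulated counts. Motifs and figures used Python 3.11.15 and matplotlib 3.10.9.

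The members and the gene lists were chosen with earlier results of these data known. The genes named are all 7 members, and in each related list those past the threshold and the 3 with the smallest p, in each marker list those past the threshold, the 5 most alike genes of Zfp423 and Zbtb18 by Pearson r of log2 CPM (prior count 2), and flanking genes, and 3 genes under this rule are not reported here. Same-numbered replicates of the diets were not paired (r of their deviations 0.0193, -0.0850 and 0.0790). Alternatives were RLE and upper quartile scaling, no filter, a mean of 100 counts, unrounded counts, limma-voom, DESeq2 1.42.0, the replicate block, each library left out, and, for order, mean transcript length. Removal of a gene length and GC trend (splines with 4 degrees of freedom) with the replicate block was chosen after seeing the data, as was mean transcript length for the Ebf shares.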

Additional observations from a re-analysis of the deposited data

How the results depend on the processing

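With 3 libraries per diet, leaving out 1 cannot move a difference by as much as 1 within-diet SD. No stability is therefore read from shifts under 1 SD. The diet differences of the 7 genes moved by less than 1 SD in all 112 values over 16 alternatives each. They ran from −0.39 to −0.28 for Zfp423, −0.24 to −0.16 for Zbtb18, 0.04 to 0.10 for Zfp521, 0.03 to 0.07 for Ebf1, −0.31 to −0.11 for Ebf2, −0.15 to −0.02 for Ebf3 and −0.11 to 0.03 for Ebf4. Zfp423 passed the threshold in 10 of 16, not with limma-voom or without low-Mn replicate 1, 2 or 3 or normal-Mn replicate 1 or 2. Zbtb18, not called in the main fit, passed in 7 of 16, among them DESeq2 and limma-voom. Both genes were chosen on this contrast, so nothing is read from these passes. Over all genes, 96 were called, 424 without a filter (218 higher, 206 lower), 63 with limma-voom, 156 with the gene length and GC trend removed, 128 with the replicate block and 225 with the replicate block and that trend removed. Leaving out 1 library gave 37 to 93, namely 47 and 37 on omission of low-Mn replicates 1 and 2, and 45 on that of normal-Mn replicate 2. Related genes called were 1, against 9 without a filter, 2 with a mean of 100 counts, 3 each with DESeq2, the replicate block and the trend removed, and 5 with block and trend. Leaving out 1 library gave 0 to 3, namely 0 on omission of low-Mn replicate 1 or 2 or normal-Mn replicate 2, 2 on that of low-Mn replicate 3 and 3 on that of normal-Mn replicate 1. Of 380 alternative values of the 24 related genes under the naming rule, 353 kept direction and side of the threshold, 23 passed it, 4 (Zbtb11) no longer did and 0 reversed. The replicate numbers shared no animal or day in the labels, and low-Mn replicates 1 and 2 each correlated best with a normal-Mn replicate of another number. Shares of the Ebf genes with the mean transcript length, chosen after seeing the data, stand beside the shares. The pairs that were neighbours by merged exon length were kept, though not all are neighbours by mean transcript length. With the mean transcript length, their log2 differences were 3.20 (Zbtb18 over Zfp521), 1.41 (Zfp521 over Zfp423) and −0.40 (Zfp423 over Ebf1). They were 3.22 (Ebf1 over Ebf4), −1.02 (Ebf4 over Ebf3) and 0.54 (Ebf3 over Ebf2). Each pair had an adjusted exact permutation p of 0.03125. With 5 libraries the smallest such p is 0.0625, so leaving out a library says nothing about those calls. The median log2 difference of all genes was −0.0142 with upper quartile scaling and −0.0025 with TMM. At its lowest count Ebf4 had a counting SD of 10.6%.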
